A study of Saposhnikovia divaricata with 9 samples.

Results

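Leaves of Saposhnikovia divaricata, a perennial herb of the carrot family whose root is used in Chinese medicine, were compared between the group coded L and the group coded C. The comparison covers the 28804 clusters, out of 63753 in the deposited table, that reached 1 FPKM in at least 3 of the 6 libraries of these groups; the other 34949 were not tested. FPKM gives a cluster's fragments relative to its length and to the mapped fragments of its library. A cluster is a group of assembled transcripts, carried in the table by an identifier alone, without a gene name, a description or a sequence.

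The study took leaves of plants aged 48 days that were either left untreated or kept at 4 °C for 6 h or 48 h, with 3 libraries in each of the groups C, M and L. Which code stands for the control and which for a length of cold is not said in the labels, so the groups are called by their codes. All groups share the species, the tissue and the age. The labels do not say whether libraries of a group came from separate plants, so every p-value measures only the spread between these libraries, which may be technical. The leaf label could not be checked against marker genes, because the clusters have no names here.

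As background, plants moved to low temperature are known to reprogramme their leaf transcriptome in waves. Transcription factors of the CBF/DREB1 family, induced early, switch on cold-regulated genes for dehydrins, sugar metabolism and membrane lipids, while photosynthesis and growth genes are often turned down. None of these genes can be assigned to a cluster in these data, and the values below describe clusters by their level, their change and their identifier.

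The FPKM of a library summed to between 863749 and 932785 in L and between 892741 and 898539 in C, and the tested clusters held between 97.4% and 98.7% of it in these 6 libraries. The number of fragments per library is unknown, but low values move in steps of 1 fragment, and the most frequent ratio between libraries among values below 6 FPKM gives their relative depth. Measured against M replicate 3, the depth was 0.912 to 1.09 in L and 0.939 to 0.998 in C. On average the L libraries were 1.04 times as deep as the C libraries. In each group replicate 2 lay furthest from the others: 15.01% and 15.7% of tested clusters differed at least 2-fold between it and another L library, against 8.99% between L replicates 1 and 3. The same held in C, with 17.9% and 16.4% against 7.54%.

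The leaves of the L group differed from those of the C group far more than libraries of a group differed among themselves. Between an L and a C library, 52.4% to 57.9% of the tested clusters were at least 2-fold apart on the log2(FPKM + 1) scale, over 9 pairs. Within L this was 8.99% to 15.7% and within C 7.54% to 17.9%, over 3 pairs each. The 9 pairs with 1 library of each group thus all lay above the 6 pairs within a group. Spearman correlations over the tested clusters lay at 0.582 to 0.641 between an L and a C library, 0.888 to 0.920 within L and 0.867 to 0.952 within C. These correlations are across clusters, which are not independent replicates. The SD of a cluster's log2 values over the 3 libraries of a group had a median of 0.300 in L and 0.288 in C.

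**Figure D1:**
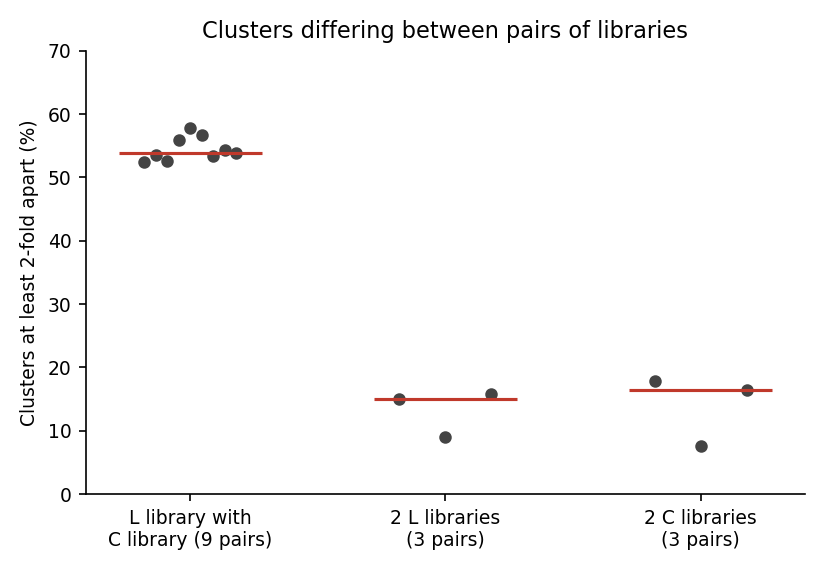
Percentage of the 28804 tested clusters at least 2-fold apart on the log2(FPKM + 1) scale, for each pair of libraries (points) with the median of each kind of pair (line). Pairs of an L and a C library lie between 52.4% and 57.9%, and no pair within a group exceeds 17.9%.

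In L against C, 3460 clusters rose and 10411 fell, which is 12% and 36.1% of those tested and 48.2% together. A cluster counts as having risen or fallen at a limma adjusted p below 0.05 and a change of at least 2-fold on the log2(FPKM + 1) scale. Without L replicate 2 there were 3558 rises and 9873 falls, and without C replicate 2 there were 3596 and 10418. In 3347 of the rises and 10176 of the falls the 3 L and the 3 C values did not overlap. Over all tested clusters every L value was above every C value in 16.0% and below every C value in 50%. RNA was taken from whole leaves, so fewer cells of a type and less RNA per cell cannot be told apart in any of these changes.

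The balance between rises and falls depended on how the libraries were scaled. With FPKM as deposited the median log2 difference of all tested clusters lay at -0.67, and 24.9% of the calls were rises. Quantile normalization moved the median to -0.16 and gave 5151 rises and 5756 falls, so that 47.2% of calls were rises. Scaling each library to the same median over tested clusters gave 6010 rises and 5351 falls, 52.9% rises. Called alike under all 3 scalings were 3445 rises and 4855 falls. The calls lost were nearly all falls: of 10411 falls, 5742 were called with quantile normalization and 5351 with median scaling, against 3445 and 3460 of the 3460 rises.

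**Figure D2:**
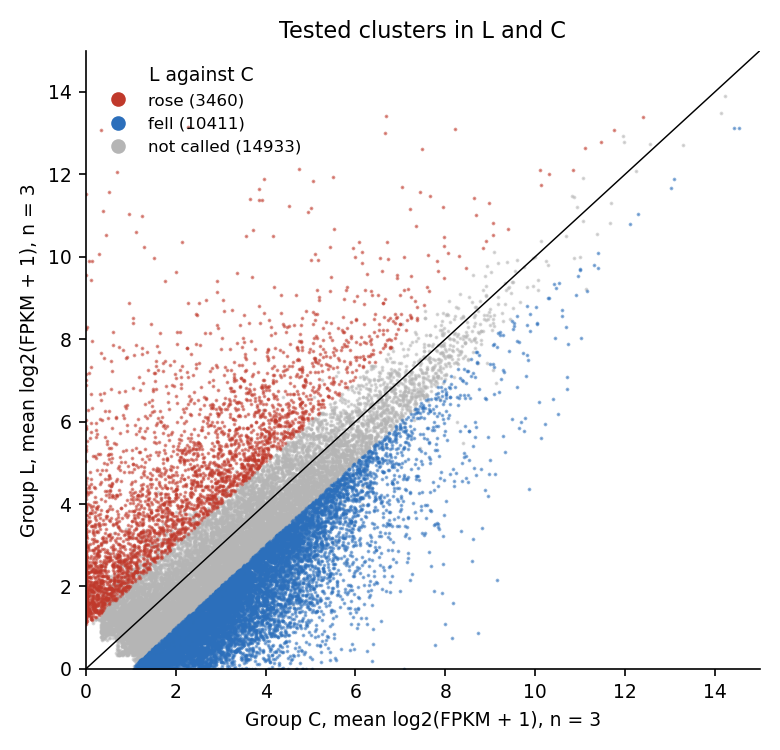
Mean log2(FPKM + 1) of the 3 L libraries (vertical) against that of the 3 C libraries (horizontal) for the 28804 tested clusters, with clusters that rose in red (3460), that fell in blue (10411) and that were not called in grey (14933). The line marks equal levels, and the bulk of the points lies below it, while the points furthest from it lie above it.

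With FPKM as deposited falls were more frequent, but rises reached further. The median log2 change was 1.91 among the rises and -1.63 among the falls, and the outer deciles lay at 3.93 among the rises and at -2.77 among the falls. Changes of 4-fold or more were found in 1622 rises and 3108 falls, and of 8-fold or more in 727 and 743. From 16-fold on the rises were more numerous with FPKM as deposited: 327 rose and 179 fell by at least 16-fold, 163 and 35 by at least 32-fold, 84 and 9 by at least 64-fold. A change of at least 256-fold was seen in 20 rises and in 0 falls. Both other scalings raised the median difference of L against C, though not the difference of every cluster. At each fold given below they added rises and removed falls. With quantile normalization 2370 rose and 1562 fell by at least 4-fold, 978 and 412 by at least 8-fold and 410 and 107 by at least 16-fold. With median scaling these were 2864 and 1470, 1296 and 331, and 583 and 78, so the order of rises and falls at 4-fold and 8-fold depended on the scaling.

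The clusters that rose most held a large part of the L libraries. The 327 that rose at least 16-fold took 20.2% ± 1.38 of all FPKM in L and 0.302% ± 0.0674 of that in C (SD, n = 3 each). The 179 that fell at least 16-fold took 0.0937% ± 0.0156 in L and 2.71% ± 0.155 of that in C (SD, n = 3 each). The 20 clusters that rose at least 256-fold alone made up 5.28% ± 0.363 of the FPKM in L, against 0.00210% ± 0.000585 in C. These clusters were selected on the same libraries, so the parts describe them and test nothing.

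The filter admitted clusters in different ways, and this bears on the calls. In 17584 clusters, 61.0% of those tested, all 6 libraries reached 1 FPKM, and here 1959 rose, 5659 fell and 9966 were not called. A further 1014 clusters reached 1 FPKM in all 3 L libraries and in no C library, and 3060 in all 3 C libraries and in no L library. Such clusters entered only through the group where they were high and had to differ; 908 of the 1014 were among the rises and 2660 of the 3060 among the falls. At the edge of the filter, 5834 clusters reached 1 FPKM in exactly 3 libraries and 8012 in exactly 2. The third highest of their 6 values had a median of 1.58 FPKM just inside and 0.48 FPKM just outside.

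Among clusters present in all libraries the L group thus also held more falls than rises with FPKM as deposited. The spread over abundance was uneven. The tested clusters were split into 4 classes of about equal size by their mean over the 6 libraries. In the lowest class, from 0.515 to 2.48 FPKM, 8.72% rose and 30.4% fell. In the second class, up to 6.35 FPKM, 9.04% rose and 43.2% fell, and in the third, up to 16.65 FPKM, 9.97% rose and 40.4% fell. In the highest class 20.3% rose and 30.6% fell, 1463 and 2205 clusters.

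The order of these classes followed the scaling as well. After quantile normalization the highest class held 1629 rises and 1671 falls, and the lowest 1199 and 964. After median scaling the highest class held 2368 rises and 966 falls, and the lowest 1044 and 1301. Under each of the 3 scalings the number of rises was greatest in the highest class. A cluster high in L can enter that class through its L values.

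**Figure D3:**
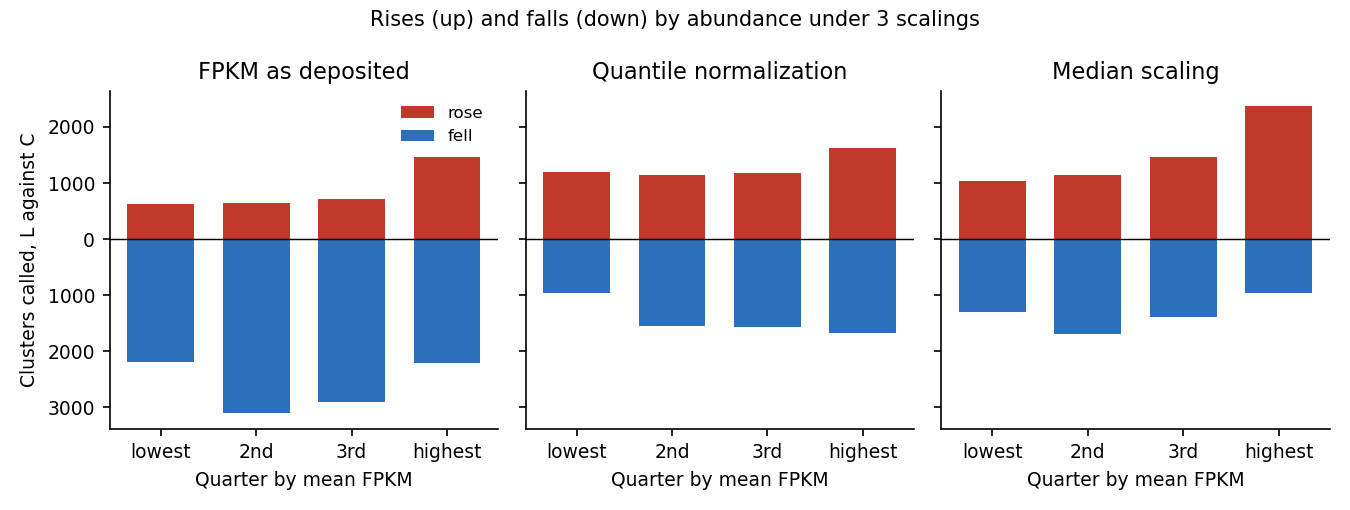
Number of clusters that rose (red, upward) and fell (blue, downward) in L against C in 4 classes of about equal size by mean FPKM over the 6 libraries, with FPKM as deposited, after quantile normalization and after median scaling. The highest class holds 1463, 1629 and 2368 rises under the 3 scalings, more than any other class.

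The most abundant clusters of the leaf differed more between the groups than within a group. Of the 100 most abundant clusters of a library, an L and a C library shared 33 to 40, while L libraries shared 85 to 92 with each other and C libraries 77 to 81. All 3 L libraries had 81 of their top 100 in common and all 3 C libraries 74, but only 30 were in the top 100 of all 6. Among the top 1000, an L and a C library shared 476 to 520, against 821 to 894 within L and 812 to 888 within C.

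Of the 100 clusters with the highest mean in L, 70 had risen, 7 had fallen and 23 were not called. Of the 100 highest in C, 8 had risen, 55 had fallen and 37 were not called. Of the 1000 highest in L, 496 had risen, 79 had fallen and 425 were not called. Of the 1000 highest in C these were 65, 413 and 522. Over all 28804 tested clusters 14933 were not called. Ranking by one group's mean favours clusters that are higher in that group, so these counts are a description, to be read beside the 12% and 36.1% over all clusters. Calls among the most abundant clusters are given for FPKM as deposited only. In the highest abundance class 2205 clusters fell as deposited, 1671 with quantile normalization and 966 with median scaling.

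The cluster with the highest mean in L stood at 13542, 17132 and 15071 FPKM in the L libraries and at 26499, 12060 and 21775 FPKM in the C libraries. It was the third most abundant in C, its groups overlapped, and its difference of -0.33 ± 0.397 (log2, SE) missed the threshold (limma, adjusted p = 0.487). The most abundant cluster of C stood at 8838, 9971 and 8151 FPKM in L and at 21892, 25189 and 24955 FPKM in C, without overlap. With FPKM as deposited it fell by 1.42 on the log2(FPKM + 1) scale (SE 0.306, limma adjusted p = 0.00325) and was still the seventh most abundant in L. Its change under the other scalings is not given here, and the number of falls in the highest abundance class depended on the scaling.

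The third and the fifth most abundant clusters in L were minor ones in C. The third stood at 10302, 11814 and 10847 FPKM in the L libraries and at 84.9, 83.5 and 147 FPKM in the C libraries, where its mean ranked 1129. It rose by 6.74 ± 0.282 on the log2(FPKM + 1) scale (SE, limma adjusted p = 9.65e-07). The fifth stood at 7500, 13154 and 7727 FPKM in L and at 4.70, 2.22 and 5.02 FPKM in C. Its rise was 10.89 ± 0.290 (log2, SE, limma adjusted p = 1.13e-07), and its mean ranked 19069 in C. In both clusters each L library lay far above each C library.

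Of the 10 highest clusters in L, 6 had risen, 2 had fallen and 2 were not called. Of the 10 highest in C, 1 had risen, 5 had fallen and 4 were not called. Just 3 clusters were among the 10 most abundant of every one of the 6 libraries.

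Because no names are paired with the identifiers, the individual clusters named here are the pair with the largest rises and the pair with the largest falls among called clusters with non-overlapping groups and a mean of the higher group in the upper 50% of tested clusters. Cluster-17261.4694 had the largest rise. It stood at 8579, 8373 and 9056 FPKM in the L libraries, at 199, 259 and 143 FPKM in the M libraries and at 0, 0 and 0.99 FPKM in the C libraries. The L values lay close together, the M values far below them, and C was listed at or near 0. The cluster passed the filter only through its L libraries and was picked for its change, so its p-value is no separate support. The log2 change in L against C was 12.75 with an SE of 0.301 (limma, adjusted p = 7.92e-08). With pseudocounts of 0.1 and 5 it was 15.25 and 10.67, a range the SE does not cover. Its mean ranked 10 among tested clusters in L and 28088 in C.

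Cluster-17261.4585 followed. It stood at 3252, 2187 and 3495 FPKM in the L libraries and at 11.4, 22.7 and 18.8 FPKM in the M libraries, and it was listed at 0 in all 3 C libraries. The limma adjusted p for L against C was 7.92e-08, and no fold is given against a group listed at 0. This cluster too passed the filter only through its L libraries and was picked for its change, so the p-value is no separate support. Its level in L ranked 37.

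Cluster-17261.29543 had the largest fall. It stood at 0.57, 0.91 and 1.08 FPKM in the L libraries, at 347, 336 and 279 FPKM in M and at 332, 536 and 421 FPKM in C. The M and C values overlapped, and the L values lay far below both. The log2 change in L against C was -7.84 with an SE of 0.20 (limma, adjusted p = 8.88e-08), and it was -8.83 and -6.19 with pseudocounts of 0.1 and 5. The cluster would not have passed the filter without its C libraries and was picked for its change, so its p-value is no separate support.

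Cluster-17261.26085 had the second largest fall. It stood at 1.01, 0 and 1.37 FPKM in the L libraries, at 199, 217 and 146 FPKM in M and at 202, 396 and 280 FPKM in C. It showed the same order as the preceding cluster, with L low and M and C overlapping. Its log2 change in L against C was -7.39 with an SE of 0.356 (limma, adjusted p = 1.76e-06), and -9.01 and -5.64 with pseudocounts of 0.1 and 5. It too passed the filter only with its C libraries and was picked for its change, so the p-value is no separate support. Its mean ranked 312 in C and 24741 in L.

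**Figure D4:**
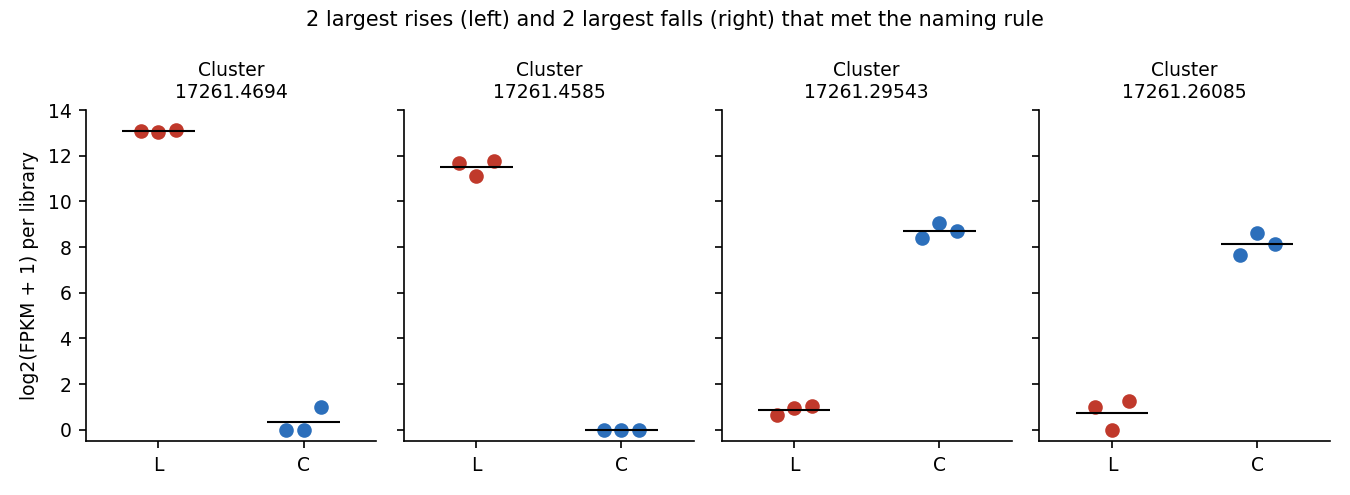
log2(FPKM + 1) of each L library (red) and each C library (blue) for the clusters with the 2 largest rises and the 2 largest falls that met the naming rule, with the group mean as a line. The groups do not overlap in any of the 4 clusters, and Cluster-17261.4585 lies at 0 in all 3 C libraries.

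Clusters below 1 FPKM in every library of the other group took a larger part of the FPKM in L than in C. Over the whole table, 21897 clusters were below 1 FPKM in every C library. They took 4.82%, 4.59% and 5.73% of the FPKM of the L libraries and 0.412%, 0.503% and 0.472% of that of the C libraries. Conversely, 27462 clusters were below 1 FPKM in every L library, and they took 0.572%, 0.428% and 0.647% of the FPKM in L and 3.25%, 4.04% and 3.47% in C. Clusters below 1 FPKM throughout both groups belong to both sets. The sets were chosen by the level in one group, so the values describe them and were not tested.

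These sets differed in how high their members reached in the other group. Of the clusters below 1 FPKM throughout C, 120 held at least 10 FPKM in each L library, 17 at least 100 FPKM and 5 at least 1000 FPKM. Of those below 1 FPKM throughout L, 99 held at least 10 FPKM in each C library, 1 at least 100 FPKM and 0 at least 1000 FPKM. By exact listing, 259 clusters were at 0 throughout C while each L library held at least 1 FPKM, and 345 were at 0 throughout L and at that level throughout C. With at least 20 FPKM asked of the higher group these were 13 and 3, and with at least 100 FPKM 3 and 0. Since an exact 0 may also stand for an estimate that failed, no more is said of such clusters than that they are listed at 0.

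The clusters needed to make up 50% of the FPKM of tested clusters numbered 335, 224 and 300 in the L libraries and 484, 588 and 667 in the C libraries. Every L library lay below every C library, with 286 ± 56.7 clusters in L and 579.7 ± 91.8 clusters in C (SD, n = 3 each; two-sided exact permutation p = 0.1, the smallest that 3 against 3 allows). The tested clusters listed above 0 numbered 27585, 27208 and 27544 in L and 27617, 27823 and 28026 in C. These groups did not overlap either, though L replicate 1 and C replicate 1 were close (two-sided exact permutation p = 0.1). The filter admitted 3060 clusters at 1 FPKM in all 3 C and no L libraries, against 1014 the other way. That favours a higher count in C, so this p-value is no separate support. Over every cluster of the table the groups did overlap, with 44249, 42138 and 46046 in L and 45032, 47131 and 46981 in C (two-sided exact permutation p = 0.2). Adjusted over the 3 measures of this kind by the Benjamini-Hochberg method, both exact permutation p-values became 0.15.

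Identifiers have a parent number and a number after the point, and 44526 of the 63753 clusters share the parent number 17261. Of the tested clusters 27521 carried it, of which 12% rose and 36.6% fell. Of the 1283 tested clusters with other parent numbers 11.9% rose and 25.4% fell. These smaller parents took 0.277% ± 0.0270 of the FPKM of tested clusters in L and 0.294% ± 0.0149 of that in C (SD, n = 3 each), a difference within the spread between libraries (two-sided exact permutation p = 0.4, adjusted 0.4).

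Within parent number 17261 the direction of change followed the number after the point. This was noticed in the data and is given as a description. Among numbers 0 to 4999, 34.6% of 1451 tested clusters rose and 14.3% fell, and among numbers 40000 to 44525, 36.5% of 778 rose and 11.3% fell. Between these ends the shares turned round: among numbers 20000 to 24999, 7.11% of 4781 clusters rose and 42.6% fell. The 2 windows next to the ends held intermediate shares, with 15.2% rising among numbers 5000 to 9999 and 17.3% among numbers 35000 to 39999. The median log2 difference was 0.48 and 0.54 in the first and last windows and -0.84 in the middle one.

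The scaling moved these shares, but under each scaling the ends held more rises and fewer falls, in percent, than the middle window. After quantile normalization 46.1% and 48.2% rose at the ends and 9.50% in the middle window. After median scaling these were 44.1%, 45.6% and 16.5%, and the falls were 7.86%, 6.17% and 19.8%. In the windows next to the ends the order of rises and falls turned with the scaling. Among numbers 5000 to 9999, 15.2% rose and 32.1% fell as deposited. With quantile normalization these shares were 23.5% and 14.8%, and with median scaling 23.6% and 17.6%. Among numbers 35000 to 39999 the shares were 17.3% and 25.9%, 26.4% and 11.7%, and 26.6% and 14.1%, in the same order of scalings. Abundance moved with the number too: the median of the clusters' mean FPKM was 2.23 and 1.90 at the ends and 21.9 in the middle.

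The difference between ends and middle was present within each abundance class. Here the ends are the first and the last 5000 numbers and the middle is numbers 20000 to 24999. In the lowest class, 22.6% of 1325 clusters rose at the ends and 0.481% of 208 in the middle. In the highest class, 91.2% of 125 clusters rose at the ends and 10.4% of 2775 in the middle, while 0.8% and 36.5% fell. Among the clusters at 1 FPKM or more in all 6 libraries, 23.8% of 462 rose and 7.14% fell at the ends, against 7.78% and 39.0% of 4241 in the middle. How the numbers were assigned is not given in the sources used here, and their part in the result was not tested.

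**Figure D5:**
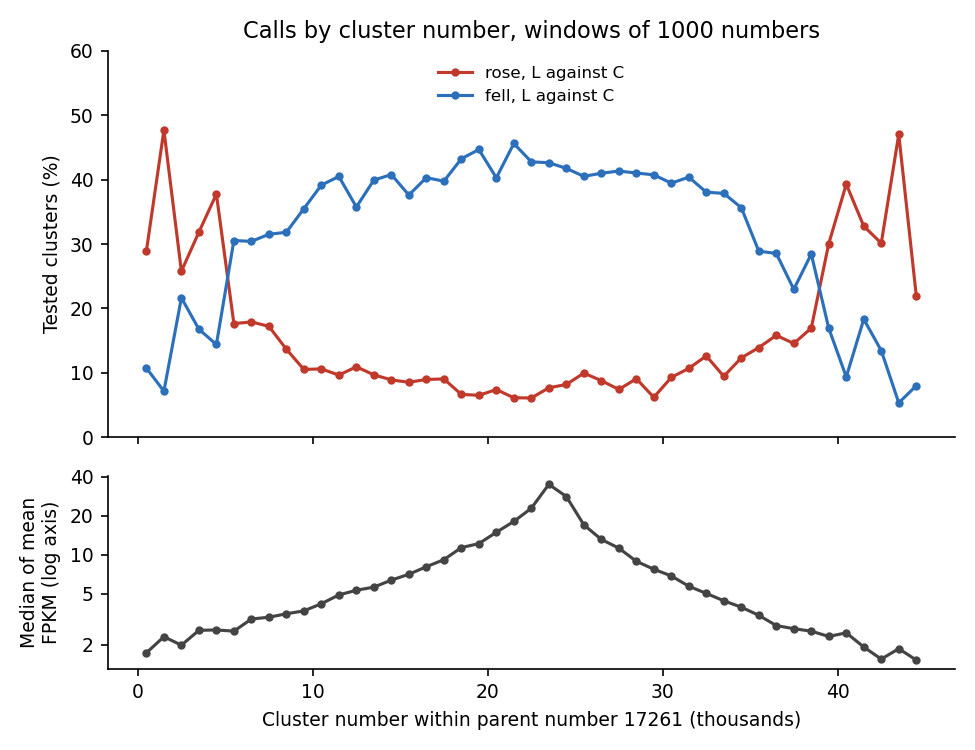
Percentage of tested clusters that rose (red) and fell (blue) in L against C in windows of 1000 cluster numbers within parent number 17261 (above), and the median of the clusters' mean FPKM over the 6 libraries on a log axis (below). With FPKM as deposited, rises are more frequent than falls at both ends of the numbering, where abundance is lowest, and falls are more frequent in between.

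The calls of neighbouring numbers were set side by side, as a description with no test, since pairs are not independent. Of the rises with a tested next number, 19.6% had a next number that rose. At distances of 2, 5, 20, 100 and 1000 numbers the share was 13.9%, 12.8%, 13.6%, 12.7% and 11.5%, beside 12% of rises over all tested clusters of this parent number. For falls the share was 42.2% at the next number and 40.5%, 39.2%, 39.3%, 40.2% and 39.7% at those distances, beside 36.6% overall. The overall shares are not over the same set, because a pair needs both numbers tested. Tested clusters were densest among numbers 20000 to 24999, where 42.6% fell and 7.11% rose. Opposite calls in directly neighbouring numbers occurred in 1361 of 20512 pairs.

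For some clusters the 95% interval of the log2 difference lay between -1 and 1. With FPKM as deposited these numbered 1743 of 7201 in the highest abundance class and 1517 of 7201 in the third. With quantile normalization they numbered 2045 and 2253, and with median scaling 2057 and 2084, settings added for this count after the data were seen. The lower classes are left out, because on the log2(FPKM + 1) scale a difference within these bounds can be more than 2-fold in a low cluster. To a lesser degree this holds in the classes kept, of which the third starts at a mean of 6.35 FPKM. The counts are thus not of clusters within 2-fold in FPKM. For the other clusters without a call, a p above the threshold does not show equal levels.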

How the data were processed

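Poly(A) RNA of leaves was sequenced, per the labels. The authors deposited FPKM per cluster and library (the unit is that of the column names, per the file headers), with 2 decimals. No aligner, assembler, counter or annotation is named in the sources used here; the labels' genome field names an animal build and the extraction text an animal tissue, which cannot describe a plant, and neither was used. FPKM are not counts, so no count model was used.

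Clusters at 1 FPKM or more in at least 3 of the 6 L and C libraries were tested. Values were transformed to log2(FPKM + 1), and a model of the 3 groups, including M for a shared estimate of the spread, was run on the 9 libraries in limma 3.58.1 (R 4.3.3) with an intensity trend. It had 6 residual degrees of freedom and 2.76 prior ones. Adjustment was over the 28804 clusters by the Benjamini-Hochberg method. On this scale the change of a low cluster is understated. In simulated data for L against C with 28804 clusters, 83 of 100 changes of 3 on the log2 scale and 52 of 100 changes of 1.5 were recovered, with 4 false calls. There the changed clusters were few and well above the filter, the noise was normal, and no library was shifted. In the real data 48.2% of clusters were called and the median log2 difference was -0.67. The simulated recovery and false calls therefore do not carry over to the real data. Exact permutation tests used SciPy 1.17.1.

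The named clusters are the 2 largest rises and 2 largest falls that met the rule in the text. Gene lists and tissue markers had been written down, but no cluster carries a name, so none was run. The members, lists and tests were chosen with earlier results of these data known. Alternatives covered pseudocount, filter, scaling, libraries in the fit, variance trend, replicate number as a block, fold threshold and each left-out library. Since fragment counts are unknown, clusters carry no counting interval.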

Additional observations from a re-analysis of the deposited data

How the results depend on the processing

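With FPKM as deposited 3460 clusters rose and 10411 fell, 13871 together. Scaling changed the split most: quantile normalization gave 5756 falls, and median scaling 6010 rises and 5351 falls. A pseudocount of 5 gave 2170 rises, 4799 falls and 6969 calls, since it shrinks the change of low clusters. A filter at 5 FPKM left fewer clusters to test, with 6584 falls and 9010 calls. All other counts of rises, falls and calls stayed within 1.5 times. Leaving out each L or C library in turn gave 3216 to 3596 rises, 9873 to 10478 falls and 13431 to 14014 calls. The difference of L minus C in the number of clusters that make up 50% of FPKM ran from -341 to -250 when a library was left out, in the number of tested clusters listed above 0 from -479 to -258, and in the percentage of FPKM outside parent number 17261 from -0.0328 to -0.00729. With every cluster of the table counted these differences were -329, -2237 and -0.157; for the number listed above 0 the groups then overlapped (two-sided exact permutation p = 0.2, against 0.1 over tested clusters). The 4 named clusters kept direction and call under every alternative run, with limma adjusted p-values from 2.82e-08 to 6.81e-05. They had been picked as the largest changes, so this says nothing of how stable other calls are. Same-numbered L and C libraries did not deviate together (correlations -0.066, -0.01 and -0.026 for numbers 1 to 3). The labels do not say whether the numbers pair libraries, and these correlations cannot decide it. The fit with the replicate block gave 3452 rises and 10368 falls. Without fragment counts or names, no precision can be stated for a low cluster and no function for any.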

Other observations

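Single libraries carried clusters of their own in both groups. At 5 FPKM or more in one library and at 0.1 FPKM or less in both others of its group were 27, 126 and 132 clusters in L replicates 1 to 3 and 120, 297 and 64 in C replicates 1 to 3. The reverse, at 0.1 FPKM or less in one library and at 5 FPKM or more in both others, was seen for 31, 42 and 18 clusters in L and 7, 175 and 3 in C. C replicate 2 held the highest number of both kinds. Leaving it out gave 3596 rises and 10418 falls in L against C.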
